A study of Homo sapiens with 8 samples.

Results

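The subunits of the mitochondrial respiratory chain and ATP synthase were followed in MOLM-13 cells treated with the immunoproteasome inhibitor PR-957. MOLM-13 is a line of human acute myeloid leukemia that carries a KMT2A fusion gene, and PR-957, also named ONX-0914, blocks PSMB8, a catalytic subunit of the immunoproteasome. Polyadenylated RNA was sequenced from 4 libraries of cells that had received 100 nM PR-957 for 72 h and 4 libraries of cells that had received the diluent DMSO for the same time. All libraries came from this single cell line, and nothing in the sources used here says whether replicates were separate cultures, so p-values measure the spread between these libraries. Members were chosen by gene symbol, with earlier results of these data known. They were the 13 protein-coding genes of mitochondrial DNA (mtDNA) and the 85 gene rows whose symbols name nuclear-encoded subunits of complexes I to V, 98 of 38551 genes in all. Complex I held 7 mtDNA-encoded and 36 nuclear-encoded members, complex II 4 nuclear-encoded members, complex III 1 and 9, complex IV 3 and 18, and complex V 2 and 18.

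The respiratory chain passes electrons from NADH (complex I) and succinate (complex II) through ubiquinone to complex III, and from there through cytochrome c to oxygen at complex IV. The proton gradient built by complexes I, III and IV drives ATP synthase, complex V. Complexes I, III, IV and V are built from subunits of both genomes, whereas complex II is wholly nuclear-encoded. Transcripts of mtDNA are made as long precursors inside the organelle and then cut into single messages, while the nuclear genes are scattered over the chromosomes, and many of their promoters carry sites for NRF1, for ETS-family factors such as GABPA and for YY1. Acute myeloid leukemia cells are known for their reliance on oxidative phosphorylation.

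Total counts ran from 16675036 to 23111223 per library. Of 12 myeloid markers, 12 had at least 10 counts in all, with a summed level of 1614 to 1666 CPM (counts scaled to the library total) in DMSO libraries and 2403 to 2757 in PR-957 libraries. The means of LYZ (149 and 843 CPM) and MPO (170 and 519 CPM) were higher with PR-957, while those of FLT3 (331 and 178 CPM) and PTPRC (201 and 134 CPM) were lower. PTPRC is listed on 2 contigs of the assembly, and fragments that match several contigs were not counted, so its level is uncertain. The T cell markers CD3E and CD3G were at 0, and 4 T cell markers together stayed at or below 0.649 CPM. Summed levels were 14.5 to 19.4 CPM for 4 B cell markers and 30.1 to 52.5 CPM for 4 epithelial markers over all libraries. Ribosomal protein genes took 17.3% ± 0.538 of counts with DMSO and 13.6% ± 0.682 with PR-957 (SD, n = 4). The part of the myeloid markers and of the ribosomal protein share in the results below was not tested.

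The mtDNA genes share bases on the same strand in the 2 places shown here, and ATP6 and COX3 share 1 base besides. Fragments that touched both genes of a pair were left out of the counts. Coordinates are those of hg38. Capitals mark the start codon of the downstream gene and the stop codon of the upstream gene.
ATP8 and ATP6 (chrM:8527-8572, plus strand): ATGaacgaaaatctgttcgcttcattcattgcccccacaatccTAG
ND4L and ND4 (chrM:10760-10766, plus strand): ATGcTAA
The 46 bases shared by ATP8 and ATP6 are 22.2% of ATP8. With the base shared with COX3, 6.9% of ATP6 is shared, so the level of ATP8 is the less certain of the pair. The 7 bases shared by ND4L and ND4 are 2.36% and 0.508% of the genes. Because whole fragments were left out, the loss of counts can be larger than these percentages.

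For the nuclear-encoded members, promoters in RefSeq (GRCh38.p14, 250 bases before to 50 bases after the gene's start) were matched for 65 of 85 genes and searched on both strands for 3 strings. The palindrome CGCATGCG, the core of the NRF1 site, was found in 9 of 65 promoters (13.8%, against 2.13% of 27305 promoters). CCGGAAG, an ETS-family core, was found in 19 (29.2%, against 10.6%), and AAGATGGC, a YY1 core, in 12 (18.5%, against 3% of all). At least 1 of them stood in 34 of the 65 (52.3%, against 14.6%). The NRF1 core is shown in capitals below with the bases around it, for 3 genes whose RNA rose with PR-957 and then 2 whose RNA did not pass the test.
NDUFS6 (chr5:1801342-1801389, plus strand): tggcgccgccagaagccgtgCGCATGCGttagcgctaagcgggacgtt
SDHD (chr11:112086744-112086791, plus strand): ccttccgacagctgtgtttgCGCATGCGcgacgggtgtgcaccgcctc
COX6A1 (chr12:120437874-120437921, plus strand): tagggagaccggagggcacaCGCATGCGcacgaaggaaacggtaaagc
NDUFS7 (chr19:1383813-1383860, plus strand): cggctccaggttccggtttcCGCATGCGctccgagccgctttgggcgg
ATP5F1C (chr10:7788136-7788176, plus strand): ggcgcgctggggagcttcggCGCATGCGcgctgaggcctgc
The ETS-family core is in capitals in the next set, from 3 genes that were among the larger increases of complexes III and V. The window shown for UQCR11 also ends in a match on the other strand (CTTCCGG, -97 to -91 from the start), left in lower case.
UQCRQ (chr5:132866568-132866614, plus strand): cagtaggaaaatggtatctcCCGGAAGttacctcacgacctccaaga
UQCR11 (chr19:1605553-1605599, minus strand): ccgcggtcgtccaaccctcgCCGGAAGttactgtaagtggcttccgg
ATP5PF (chr21:25735058-25735104, minus strand): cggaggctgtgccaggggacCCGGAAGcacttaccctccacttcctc
Promoters with at least 1 of the strings belonged to 21 of 38 matched genes that were called higher and to 10 of 17 that were not called. For the ETS-family core alone these were 15 of 38 and 3 of 17. For the NRF1 core they were 6 and 3, and for the YY1 core 5 and 5, and none of these splits was tested. The background of 27305 promoters is not limited to genes that were expressed here. A match is a description of the letters and not a site shown to be bound. The genes shown here were picked after their values were seen.

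To compare the genomes, the share of counts in each was taken first. The 13 mtDNA-encoded genes took 2.19%, 2.75%, 2.24% and 1.94% of the counts in DMSO replicates 1 to 4, and 4.65%, 4.76%, 4.15% and 5.24% in PR-957 replicates 1 to 4. The groups did not overlap, and the mean went from 2.28% ± 0.340 to 4.70% ± 0.449 (SD, n = 4), a ratio of 2.06. The 85 nuclear-encoded genes together took 1.13%, 1.07%, 1.14% and 1.07% with DMSO and 1.41%, 1.31%, 1.34% and 1.28% with PR-957, also without overlap. Their mean went from 1.11% ± 0.0386 to 1.34% ± 0.0541, a ratio of 1.21. Counts of mtDNA-encoded genes per count of nuclear-encoded genes were 1.93, 2.56, 1.96 and 1.81 with DMSO and 3.30, 3.62, 3.09 and 4.10 with PR-957, so the balance between the genomes shifted in every PR-957 library beyond the DMSO range. In replicates 1 and 2 alone this ratio was 1.54 times as high with PR-957, and in replicates 3 and 4 alone 1.91 times. These shares are given without a test, because they are sums over chosen members. In bulk RNA, a change in the number of cells of a kind and a change in RNA per cell cannot be told apart, nor was the number of mtDNA copies measured.

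**Figure D1:**
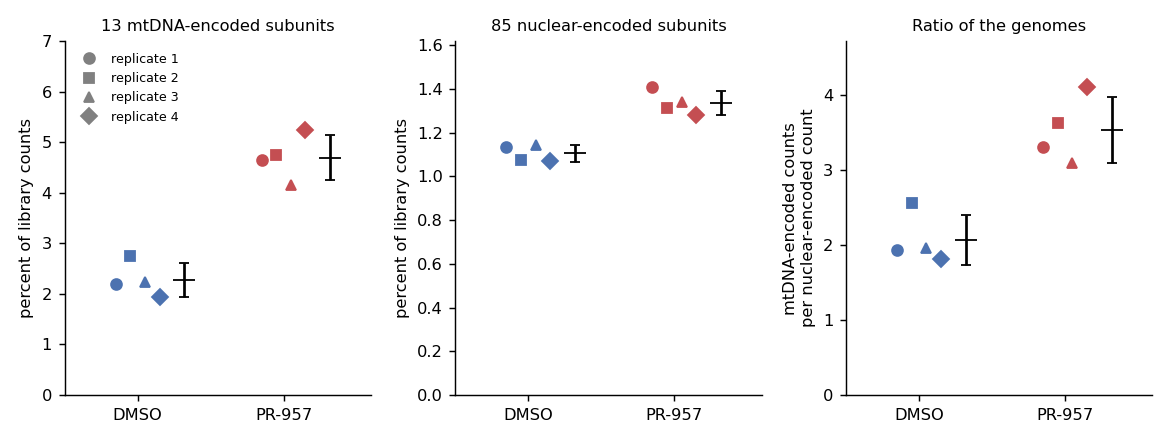
Percent of library counts in the 13 mtDNA-encoded genes (left) and the 85 nuclear-encoded genes (middle), and counts of mtDNA-encoded genes per count of nuclear-encoded genes (right), with 1 point per library, shaped by replicate number, and black bars for the mean ± SD (n = 4). PR-957 libraries lie above all DMSO libraries in each panel, by the most in the mtDNA share (4.15% to 5.24% against 1.94% to 2.75%).

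All 13 mtDNA-encoded genes rose with PR-957 in the quasi-likelihood test of edgeR (p under 0.05 after adjustment over the 13179 genes tested), and none fell, also at an unadjusted p under 0.05 and by DESeq2 or limma-voom. Of all genes tested, 23.1% were called higher and 23.5% lower. The median log2 fold change of the 13 was 1.04, or 2.05-fold, beside 0.00 over all genes, and the values ran from 0.81 to 1.46. In 7 genes the increase was at least 2-fold. In each of the 13 genes, every PR-957 library lay above every DMSO library, which held for 20.8% of all genes tested, while 21.7% lay below. Within replicates 1 and 2 all 13 genes were called higher, with a median of 0.84, and within replicates 3 and 4 the number was 11, with a median of 1.16. The exceptions were ND4L (1.45, adjusted p = 0.0572) and ATP8 (1.45, adjusted p = 0.0952), which had the lowest counts but for ND6.

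Levels of single genes are given as TMM-normalised CPM, that is, read counts scaled to a common library size with trimmed means of M-values. The mtDNA-encoded subunits of complex I sit in its membrane arm, through which protons are pumped. ND5 changed the most of the 13. Its level was 778, 1038, 799 and 739 CPM in DMSO replicates 1 to 4 and 2191, 2343, 1951 and 2768 CPM in PR-957 replicates 1 to 4 (log2 fold change 1.46 ± 0.14, adjusted p = 3.01e-05). The lowest PR-957 library was therefore still well above the highest DMSO library. ND4L, the smallest mtDNA-encoded subunit of the arm, went from 277, 400.1, 307 and 268 to 679, 765, 615 and 957 CPM (1.27 ± 0.19, adjusted p = 0.00144), and PR-957 replicate 4 was the highest. ND4, whose message it shares, stood at 2422, 2904, 2427 and 2096 CPM and then 4774, 5020.2, 4454 and 5976 CPM (1.04 ± 0.11, adjusted p = 7.49e-06). Here too PR-957 replicate 4 was the highest library and the groups were far apart.

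ND6, the only one of the 13 encoded on the opposite strand, went from 200.5, 216, 154 and 136 to 358, 356, 300.2 and 435 CPM (1.04 ± 0.19, adjusted p = 0.00361). ND2 measured 1186, 1519, 1203 and 1021 CPM with DMSO and 2431, 2418, 2032 and 2584 CPM with PR-957 (0.94 ± 0.12, adjusted p = 8.02e-05). In both genes all PR-957 libraries stood above the DMSO libraries. ND1 rose from 2307, 2868, 2162 and 1799.5 to 4308, 4330, 3389 and 4278 CPM (0.84 ± 0.14, adjusted p = 0.0016), with PR-957 replicate 3 lower than the rest of its group. ND3 had the smallest change of the 13, from 418, 517, 443 and 379 to 843, 805, 656 and 779 CPM (0.81 ± 0.097, adjusted p = 2.44e-05). Even so its lowest PR-957 value was above the highest DMSO value.

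CYTB, which carries the b-type haem groups of complex III, went from 997, 1319, 1081 and 929.8 to 2386, 2369, 1952 and 2563 CPM (1.10 ± 0.11, adjusted p = 1.75e-05). The catalytic core of complex IV is made of COX1, COX2 and COX3, and their fold changes lay close together. COX1 measured 7538, 9042, 7767 and 6361 CPM with DMSO and 14501, 14736, 12844 and 15247 CPM with PR-957 (0.90 ± 0.089, adjusted p = 5.48e-07). COX2 measured 2023, 2311, 2052 and 1730 and 4029, 3924, 3465 and 3941 CPM (0.92 ± 0.077, adjusted p = 2.64e-08), and COX3 2994, 3451, 3219 and 2592 and 5946, 5380.1, 5006 and 6016 CPM (0.87 ± 0.083, adjusted p = 2.68e-07). All of the complex IV core stayed just under 2-fold, with the smallest errors among the mtDNA-encoded genes. Of the proton channel of ATP synthase, ATP6 rose from 1476, 2052, 1566 and 1331 to 3436, 3642, 2997 and 3931 CPM (1.12 ± 0.14, adjusted p = 2.05e-04). ATP8, a small subunit beside it, rose from 218, 287, 211 and 171 to 432, 465, 398 and 647 CPM (1.13 ± 0.22, adjusted p = 0.00545), with PR-957 replicate 4 above the others. By complex, the median log2 fold change of mtDNA-encoded members was 1.04 for complex I, 1.10 for complex III, 0.90 for complex IV and 1.13 for complex V, and differences between these medians were not tested.

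**Figure D2:**
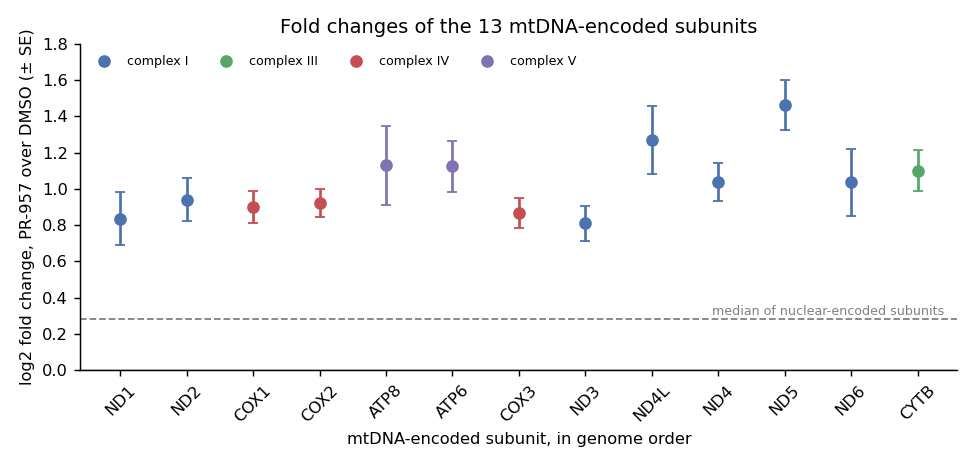
Log2 fold change of PR-957 over DMSO with its SE for the 13 mtDNA-encoded genes, in their order on the genome and coloured by complex, with a dashed line at the median of the 74 nuclear-encoded members tested (0.28). Every point lies above the dashed line, from 0.81 for ND3 to 1.46 for ND5.

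Because the 13 genes rose unequally, their makeup was examined as percent of all mtDNA-encoded counts, in which shares add up to the whole and so depend on each other. ND5 took 3.41%, 3.72%, 3.41% and 3.78% with DMSO and 4.73%, 5.03%, 4.87% and 5.52% with PR-957. The groups did not overlap. CYTB went from 4.62% ± 0.176 to 5.06% ± 0.125 and ATP6 from 6.83% ± 0.374 to 7.64% ± 0.223 (SD, n = 4). The shares of 4 genes (ND5, ND4L, CYTB and ATP6) were higher without overlap between the groups and those of 2 genes (COX1 and ND3) were lower without overlap. COX1, the most abundant, took 32.8% ± 0.387 with DMSO and 31.4% ± 0.699 with PR-957. The remaining 7 genes overlapped. ND4L went from 1.33% ± 0.0929 to 1.64% ± 0.1945, while ND4, with which it shares a message, was among the genes that overlapped. ATP8, which shares bases with ATP6, also overlapped (0.940% ± 0.0669 with DMSO and 1.05% ± 0.160 with PR-957). The higher shares of ND4L and ATP6 are therefore not shown to be changes in the makeup of messages. Fragments that touched both genes of a pair were not counted, and the part of this loss in the shares of ND4L, ATP6 and ATP8 was not tested. None of the shares was tested between the groups.

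**Figure D3:**
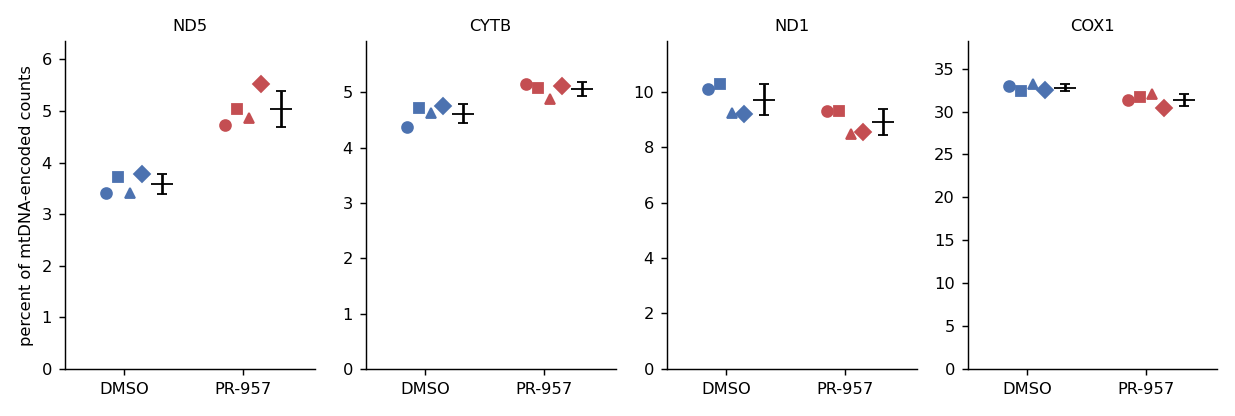
Percent of all mtDNA-encoded counts in ND5, CYTB, ND1 and COX1, with 1 point per library, shaped by replicate number as in the plot of genome shares, and black bars for the mean ± SD (n = 4). The share of ND5 stood at 4.73% to 5.52% with PR-957 and 3.41% to 3.78% with DMSO, while ND1 overlapped between the groups.

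Per length, levels in DMSO libraries were highest for COX1 (4979 ± 713 CPM per kilobase), COX3 (3908 ± 467) and COX2 (2966 ± 347). ND1 (2389 ± 465) and ATP6 (2359 ± 459) followed and did not differ beyond their spread. ND4 stood at 1787 ± 241. ND3, ND2, ATP8, ND4L and CYTB lay between 948 and 1269, each within the spread of its neighbours. ND5 (463 ± 74.6) and ND6 (336.5 ± 72.2) were the lowest (SD, n = 4). The order of levels is therefore led by complex IV, and ND5, with the largest fold change, was among the least abundant. Levels per length also depend on fragments that matched nuclear copies of mtDNA or touched a neighbouring gene, since these were not counted.

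Of the 85 nuclear-encoded members, 74 had enough counts to be tested. With PR-957, 47 of them rose and 3 fell by the same edgeR test and threshold, and 24 did not pass, with log2 fold changes of -0.18 to 0.38. The background over all genes was 23.1% higher and 23.5% lower. Of 1952 other tested genes with abundance between the lower and upper quartiles of the nuclear-encoded members, 30.5% were called higher and 28.9% lower. The median log2 fold change was 0.28, or 1.22-fold. None of the increases reached 2-fold and 7 reached 1.5-fold. In 42 genes every PR-957 library lay above every DMSO library, and in 2 genes every one lay below, beside 20.8% and 21.7% of all genes tested. Of the 47 genes that rose, 47 had a positive fold change both in replicates 1 and 2 and in replicates 3 and 4, and 32 were called higher within both pairs. The 47 were selected on these same libraries, so the pairs are not an independent check. The first of these pairs gave a median of 0.34 and the second 0.21. The larger change was in replicates 1 and 2 for 61 of 74 nuclear-encoded genes and for 1 of 13 mtDNA-encoded genes, a difference that was not tested.

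Many of these transcripts are short, and short transcripts rose more often in the whole data set. Of 578 other tested genes whose canonical transcript has at most 1000 bases, 38.4% were called higher and 17.3% lower. Among members of that length, 27 of 44 were higher (61.4%) and 3 lower. Among members with longer transcripts, 20 of 30 were higher (66.7%), while of all longer genes 24.1% were higher and 24.8% lower. The part of transcript length in the result was not tested.

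**Figure D4:**
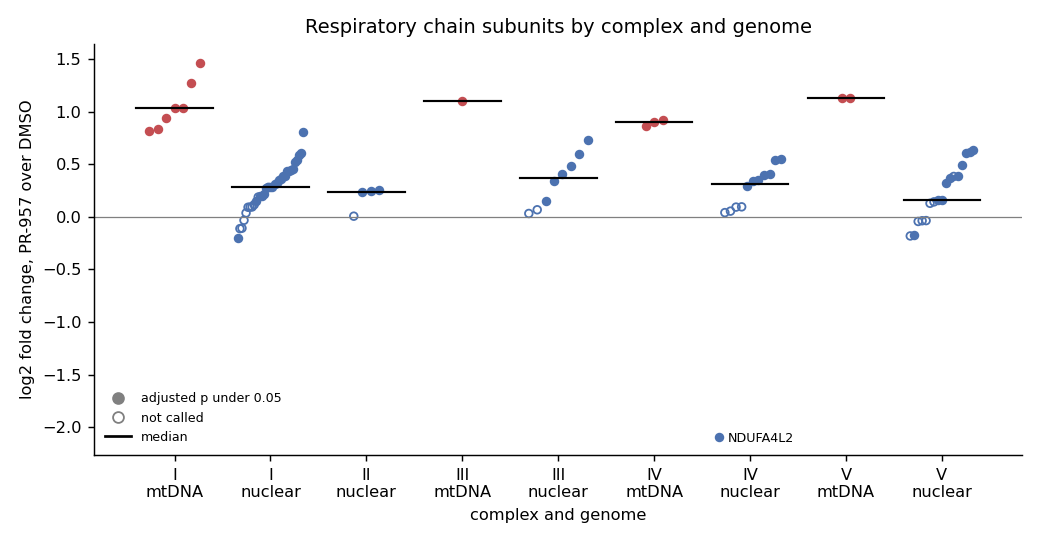
Log2 fold change of PR-957 over DMSO for each tested subunit, by complex and genome (red for mtDNA-encoded, blue for nuclear-encoded), with filled points at an adjusted p under 0.05, open points above it, and black lines at the medians. In complexes I, III, IV and V each mtDNA-encoded subunit lies above every nuclear-encoded subunit of the same complex. In complex I this order is not secure, since ND3 (0.81 ± 0.097, SE) and NDUFS5 (0.80 ± 0.065) lie within their errors. In replicates 3 and 4 alone NDUFS5 (0.82) was above ND3 (0.80).

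In complex I, 22 of 33 tested nuclear-encoded subunits rose and 1 fell, with a median of 0.28. Beside this and the counts for complexes II to V below, the shares over all genes tested were 23.1% higher and 23.5% lower. NDUFS5, an accessory subunit on the intermembrane space side, had the largest increase of all nuclear-encoded members. Its level was 108, 99, 106 and 94.6 CPM in DMSO replicates 1 to 4 and 195, 160.4, 184 and 170.1 CPM in PR-957 replicates 1 to 4 (0.80 ± 0.065, adjusted p = 8.23e-09). NDUFB2, an accessory subunit of the membrane arm, went from 44.5, 38.6, 45.5 and 39.4 to 66.8, 57.8, 68.7 and 62.3 CPM (0.61 ± 0.071, adjusted p = 1.14e-06). Neither gene overlapped between the groups. NDUFS4, an accessory subunit of the arm that takes up NADH, went the other way. It measured 62.2, 57.9, 55.8 and 56.8 CPM with DMSO and 53.3, 52.8, 51.3 and 45.1 CPM with PR-957 (-0.20 ± 0.065, adjusted p = 0.016). This small decrease no longer passed the test without DMSO replicate 1 (-0.17), without PR-957 replicate 4 (-0.15), in either pair of replicates alone (-0.18 and -0.23) or when libraries were scaled by their totals alone (-0.12).

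The core subunits of complex I hold the flavin and the iron-sulfur clusters or the quinone site. Of these, NDUFS8 (0.32 ± 0.077, adjusted p = 0.00233) and NDUFV1 (0.19 ± 0.056, adjusted p = 0.00773) rose, though neither passed in replicates 3 and 4 alone (0.23 and 0.15). The log2 fold changes of NDUFV2 (0.09) and NDUFS7 (0.04) did not pass. Of 28 accessory subunits tested, 20 rose and 1 fell, with a median of 0.30.

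Complex II, which oxidises succinate, rose in 3 of 4 subunits, with a median of 0.24. SDHB, the iron-sulfur subunit, measured 105, 94.9, 104 and 86.5 CPM with DMSO and 119, 119, 116 and 109 CPM with PR-957 (0.25 ± 0.063, adjusted p = 0.00269). The membrane anchor SDHD measured 156, 157, 161 and 133 and 191, 189, 173 and 163 CPM (0.24 ± 0.066, adjusted p = 0.00525), and its call was lost within replicates 3 and 4. SDHA, the flavoprotein, rose as well (0.23 ± 0.055, adjusted p = 0.00158). The other anchor, SDHC, did not pass, at 0.01 ± 0.053 (adjusted p = 0.942), with overlapping groups.

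In complex III, 6 of 8 tested subunits rose, with a median of 0.37, and none fell, also at an unadjusted edgeR p under 0.05 and by DESeq2 or limma-voom. UQCR10, a small accessory subunit, went from 46.6, 48.8, 45.3 and 41 to 84.2, 73.4, 69.9 and 73.1 CPM (0.73 ± 0.070, adjusted p = 8.42e-08). UQCRQ, another small subunit, went from 70.3, 58.7, 65.5 and 52.6 to 107, 95.5, 94.7 and 76.1 CPM (0.60 ± 0.11, adjusted p = 0.0012). Both rose without overlap, and PR-957 replicate 1 was the highest in each. Of the core, UQCRC1 (0.41 ± 0.062, adjusted p = 2.46e-05) and the Rieske iron-sulfur protein UQCRFS1 (0.34 ± 0.061, adjusted p = 1.68e-04) rose, and cytochrome c1, CYC1, did not pass (0.03 ± 0.054, adjusted p = 0.661).

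In complex IV, 7 of 12 tested nuclear-encoded members rose and 1 fell, with a median of 0.32. COX7B, an accessory subunit, went from 104, 94, 121 and 94.4 to 156, 139.9, 160.4 and 148 CPM (0.55 ± 0.075, adjusted p = 1.26e-05). COX6A1, the ubiquitous form of its subunit, went from 163, 145, 168 and 144 to 251, 215, 224 and 209 CPM (0.54 ± 0.066, adjusted p = 2.10e-06). The first nuclear-encoded subunits to join the core, COX4I1 (0.05 ± 0.064, adjusted p = 0.513) and COX5A (0.09 ± 0.056, adjusted p = 0.187), did not pass the test. COX5B did (0.29 ± 0.061, adjusted p = 7.26e-04), but not in replicates 3 and 4 alone (0.21).

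NDUFA4L2 had the largest decrease of all members. It is a paralog of NDUFA4 known to be induced in hypoxia, and it lies on the minus strand at chr12:57234903-57240762 (hg38). Its level was 19.4, 17.1, 20.2 and 15.5 CPM in DMSO replicates 1 to 4 and 4.51, 3.45, 4.38 and 4.56 CPM in PR-957 replicates 1 to 4 (-2.09 ± 0.12, adjusted p = 1.18e-10). The highest PR-957 value was less than the lowest DMSO value by a wide margin, and the call was kept in 20 of 20 alternative fits, with log2 fold changes of -2.20 to -1.99. NDUFA4 itself, once assigned to complex I and now to complex IV, moved in the opposite direction, from 81.4, 84, 90.8 and 84.3 to 128, 113, 101 and 111 CPM (0.41 ± 0.066, adjusted p = 5.04e-05), also in 20 of 20.

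Other paralogs of complex IV had few or no counts. COX4I2, COX6A2, COX7A1 and COX7B2, which are known from lung, muscle or testis, had 0 counts in every library. A count of 0 allows up to 0.130 to 0.180 CPM per library (3 counts, counting error only). COX6B2 had 5 counts in all, from 2 PR-957 libraries. Their ubiquitous partners had log2 fold changes of 0.05 for COX4I1, 0.54 for COX6A1, 0.04 for COX7A2, 0.55 for COX7B and 0.35 for COX6B1, of which COX4I1 and COX7A2 did not pass. The remaining ubiquitous subunit with a paralog, COX8A, rose (0.34 ± 0.069, adjusted p = 4.75e-04), but did not pass in replicates 3 and 4 alone (0.21).

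In complex V, 9 of 17 tested nuclear-encoded members rose and 1 fell, with a median of 0.16. The medians of the complexes were not tested against each other. ATP5PF, a part of the peripheral stalk, went from 88.2, 84.9, 90.7 and 87.7 to 147, 126, 137 and 136 CPM (0.63 ± 0.057, adjusted p = 3.36e-08). ATP5MF, an accessory subunit of the membrane part, went from 54.4, 57.9, 63.8 and 48.8 to 91.5, 85.1, 83.2 and 85 CPM (0.62 ± 0.070, adjusted p = 8.15e-07), although 30.6% of its exon bases are shared with the readthrough gene ATP5MF-PTCD1, which makes its counts less certain. Neither overlapped between the groups. Of the catalytic F1 head, only ATP5F1A rose (0.16 ± 0.057, adjusted p = 0.0241), and it lost the call without DMSO replicate 2 (0.15), PR-957 replicate 1 (0.13) or PR-957 replicate 2 (0.14), and in replicates 3 and 4 alone (0.10). The others did not pass, at -0.04 for ATP5F1B, -0.04 for ATP5F1C, -0.18 for ATP5F1D and 0.38 ± 0.20 for ATP5F1E. ATP5F1D was close to the threshold (edgeR adjusted p = 0.0529) and was called lower in 7 of 20 alternative fits. It was at -0.28 in replicates 1 and 2 alone (adjusted p = 0.000912) and at -0.08 in replicates 3 and 4 alone (adjusted p = 0.512). ATP5F1E had 42 to 86 counts per library and shares 8.06% of its bases with SLMO2-ATP5E. Its mean with DMSO was 3.00 CPM, beside 161.9 to 982.8 CPM for the other F1 genes. Fragments that touched both genes were not counted, so its level and fold change are uncertain here.

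The c-ring of ATP synthase, which turns as protons pass, is built from a single protein encoded by 3 genes. ATP5MC1 rose from 81.1, 79.1, 85.1 and 72 to 131, 115, 124 and 113 CPM (0.61 ± 0.064, adjusted p = 2.88e-07). ATP5MC3 rose from 221, 202, 229.8 and 206 to 275, 268, 286 and 279.7 CPM (0.37 ± 0.055, adjusted p = 1.94e-05). ATP5MC2 measured 456, 376, 461 and 415 CPM with DMSO and 407, 355, 401 and 352 CPM with PR-957 (-0.17 ± 0.069, adjusted p = 0.0496), with overlapping groups. The calls of ATP5MC1 and ATP5MC3 were kept in 20 of 20 alternative fits and that of ATP5MC2 in 10 of 20, with log2 fold changes of -0.23 to -0.09. It was lost with limma-voom (-0.17), a filter of 1 CPM (-0.17), upper quartile scaling (-0.16) and library totals alone (-0.09), in replicates 1 and 2 (-0.12) and replicates 3 and 4 (-0.22) alone, and without DMSO replicate 1 (-0.14), DMSO replicate 3 (-0.13), PR-957 replicate 2 (-0.14) or PR-957 replicate 4 (-0.14). Fragments that map to more than 1 place were not counted, so pseudogene copies could lower the count of any of these genes.

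**Figure D5:**
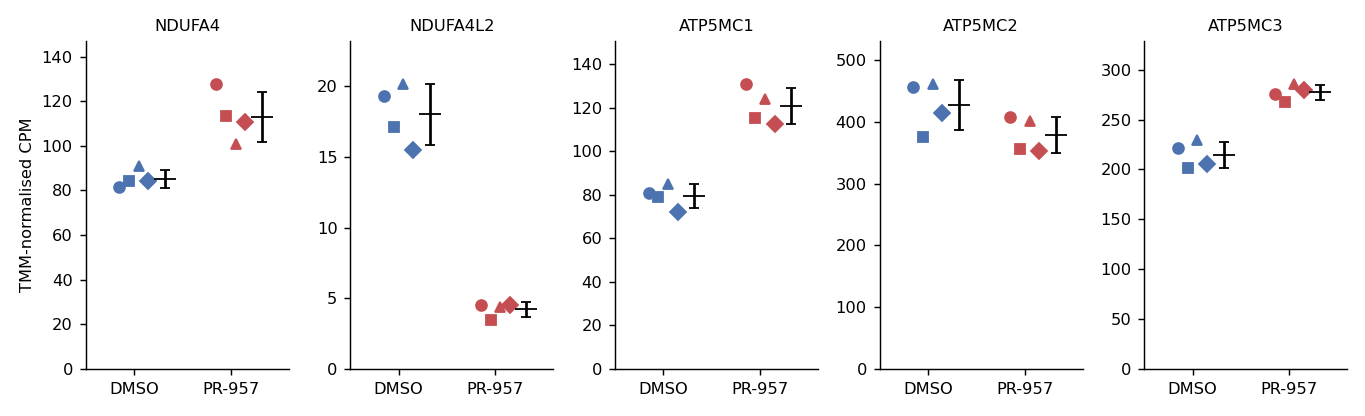
TMM-normalised CPM of NDUFA4, NDUFA4L2, ATP5MC1, ATP5MC2 and ATP5MC3, with 1 point per library, shaped by replicate number as in the plot of genome shares, and black bars for the mean ± SD (n = 4), each panel on its own axis from 0. NDUFA4L2 fell from 15.5 to 20.2 CPM with DMSO to 3.45 to 4.56 CPM with PR-957 while NDUFA4 rose, and the ATP5MC2 groups overlap.

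The 11 members that were not tested comprised those 4 at 0 in every library, COX6B2, ATP5MGL with 11 counts in all, and 5 genes listed on several contigs of the assembly. The last were NDUFA3, NDUFS1, NDUFS3, UQCRC2 and COX8C, which had 0 to 4 counts per library. Fragments that match several contigs are lost in such counting, so the levels of these genes are unknown here and are not shown to be low. NDUFS1, a core subunit of complex I, had 0 counts throughout. NDUFA6, listed at 5 places with 48 to 88 counts, and NDUFA10, listed at 2, were tested, and their levels are uncertain for the same reason. So are the counts of ATP5PB, NDUFC2 and ATP5MD, which share 28.4%, 19.7% and 16.0% of their exon bases with other genes on the same strand.

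Of 63 tested factors that assemble the complexes, 22 rose and 13 fell, with a median log2 fold change of 0.12, where 23.1% of all genes were higher and 23.5% lower. For complex I the counts were 6 higher and 1 lower of 19, with NDUFAF8 the largest (0.61 ± 0.15, adjusted p = 0.00932). For complex II they were 1 and 2 of 4, with SDHAF4, which helps to mature SDHA, the largest (-0.57 ± 0.077, adjusted p = 5.76e-06). For complex III they were 3 and 2 of 9, led by UQCC5, listed as SMIM4 (0.71 ± 0.11, adjusted p = 3.12e-05), and for ATP synthase 1 of 5 rose, TMEM70 (0.27 ± 0.076, adjusted p = 0.00612). For complex IV 11 rose and 8 fell of 26, led by COA3 (0.75 ± 0.090, adjusted p = 1.53e-06). That list held both partners of the complex that stabilises mtDNA-encoded messages, picked here after their values were seen. LRPPRC fell from 543.5 ± 22.0 to 414 ± 17.2 CPM (-0.39, adjusted p = 8.22e-06) and SLIRP rose from 37.4 ± 4.32 to 59.7 ± 5.47 CPM (0.68, adjusted p = 2.38e-06; SD, n = 4).

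Of 17 tested carriers and related subunits outside the symbol rule, 6 rose and 4 fell, beside 23.1% and 23.5% of all genes. The largest was NDUFAB1, the acyl carrier protein that is also part of complex I (0.63 ± 0.067, adjusted p = 3.88e-07). Of 13 regulators of respiratory genes, 2 rose and 2 fell, which is no more than the shares of all genes. The largest called was the coactivator PPARGC1B (0.29 ± 0.090, adjusted p = 0.0114), which did not pass in replicates 1 and 2 alone (0.18). Among those picked after their values were seen, the mtDNA transcription and packaging factor TFAM was slightly lower (-0.15, adjusted p = 0.0446). That call did not hold by limma-voom (-0.15), DESeq2 (-0.16), library totals alone (-0.08) or upper quartile scaling (-0.14), in replicates 3 and 4 alone (-0.12), nor without DMSO replicate 1 (-0.15), DMSO replicate 2 (-0.11), PR-957 replicate 1 (-0.15), PR-957 replicate 3 (-0.13) or PR-957 replicate 4 (-0.15). TFB1M, which modifies mitochondrial ribosomal RNA, fell (-0.28, adjusted p = 0.00167). The other regulator that rose was the nuclear receptor ESRRA (0.18, adjusted p = 0.0287), whose call was lost without DMSO replicate 1 (0.18), DMSO replicate 4 (0.12), PR-957 replicate 1 (0.16) or PR-957 replicate 3 (0.19), and in either pair of replicates alone (0.16 and 0.21). The factors whose binding letters were searched did not pass, with NRF1 at -0.17, GABPA at 0.06 and YY1 at 0.07.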

How the data were processed

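Per the labels and the study's methods, polyadenylated RNA of MOLM-13 cells was made into TruSeq libraries, and the submitters' processing notes name Trimmomatic 0.39, STAR 2.7.10a, featureCounts 2.0.1 and hg38. The table the authors deposited holds counts of fragments for each gene, not normalized, from featureCounts on the reverse strand against RefSeq gene models. Per the file headers, both ends had to map, and fragments that matched several places or several genes were not counted, which affects overlapping mtDNA genes, genes on several contigs and pseudogene copies. The command named 16 libraries, of which 8 had columns and 8 were not analysed here. The authors' own table of fold changes and p-values from DESeq2 was not used. Gene rows without values (6) were left out.

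Groups and replicate numbers came from the sample titles. Differences between PR-957 and DMSO were assessed by the two-sided quasi-likelihood test of edgeR 4.0.16 (R 4.3.3), with TMM scaling, filterByExpr (13179 genes, 99.9% of counts), no covariate and Benjamini-Hochberg adjustment over all genes tested. Standard errors were derived from the log2 fold change and its F statistic. Counting 3 fragments as the limit of a count of 0, libraries resolved 0.130 to 0.180 CPM. The lowest chi-square per gene between replicates was 3.32, where sampling noise gives about 1, so no library was a duplicate. The fit was tested on simulated data.

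Members and gene lists (assembly factors, carriers, regulators, cell markers) were chosen with earlier results of these data known. Genes named with values were the 13 mtDNA-encoded genes, per complex up to 2 of the largest increases and decreases past the threshold, nuclear-encoded core subunits, paralogs of 1 subunit, members with few counts or several placements, and the largest called gene of each other list. The values of 1 member are not reported here. NDUFA4 and NDUFA4L2 were placed with complex IV. Motifs were searched in RefSeq promoters (GRCh38.p14), and transcript lengths came from GENCODE v44. Alternatives were DESeq2 1.42.0, limma-voom (limma 3.58.1), other scalings and filters, chrM rows left out, the replicate number as a block, replicates 1 and 2 against 3 and 4 as a term or fitted apart (a split known from earlier results, since the labels give no batch), and each library left out in turn.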

Additional observations from a re-analysis of the deposited data

Results flagged for a closer look

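In 180 groups of 4 libraries (tested members and the summed shares, each in DMSO and in PR-957), 4 held a library set apart from the rest by Dixon's criterion at the 95% level. Chance alone flags about 1 in 20 groups. All 4 were in PR-957 libraries, and none was tested further. ND1 stood at 3389 CPM in PR-957 replicate 3, against 4278 to 4330 CPM in the other replicates, and was still above every DMSO library. NDUFA10, a complex I accessory subunit, stood at 102 CPM in PR-957 replicate 1, against 98.4 to 98.9 CPM. NDUFA4L2 stood at 3.45 CPM in PR-957 replicate 2, against 4.38 to 4.56 CPM, a gap in the direction of its decrease. ATP5MG, an accessory subunit of ATP synthase, stood at 292 CPM in PR-957 replicate 1, against 256 to 261 CPM.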

How the results depend on the processing

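The number of mtDNA-encoded genes called higher was 13 in each alternative that tested them (all but the fit without chrM rows), except in replicates 3 and 4 alone (11), and 11 of the 13 genes kept their call in these alternatives. Their median log2 fold change was 0.84 in replicates 1 and 2 only and 0.92 to 1.13 when 1 library was left out. The nuclear-encoded members called higher numbered 34 in replicates 3 and 4 only and 56 with library totals alone, and 43 to 49 when 1 library was left out, with a median of 0.23 to 0.30. Those called lower were 3 in the reported fit, 1 with library totals alone, and 1 to 4 when 1 library was left out (1 without DMSO replicate 1 or PR-957 replicate 4). Of 50 nuclear-encoded genes called, 33 kept the call in every alternative and none changed sign. Over all genes, library totals alone gave 4066 higher and 2353 lower, beside 3045 and 3098. Leaving chrM out of the total gave the nuclear-encoded genes 1.13% and 1.40% of counts. The causes of these shifts were not tested.

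Pairing by replicate number was not established. Deviations of same-numbered libraries correlated at 0.0985 to 0.2131, with 1 pair under the 0.1 asked for here, and those of other numbers at -0.1872 to 0.1135. As a hint of pairing from the data, 7 of 8 libraries correlated best with their own number. With the replicate block, 13 mtDNA-encoded genes were higher, 51 nuclear-encoded genes were higher and 4 lower, and 3513 genes were higher and 3400 lower in all.

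Some genes that were not called changed sign. With library totals alone, NDUFB5 was at 0.0451, ATP5F1B at 0.0398, ATP5F1C at 0.0339 and ATP5PO at 0.0419. In replicates 1 and 2 only, ATP5F1B was at 0.0383 and ATP5PO at 0.0329. In replicates 3 and 4 only, NDUFS7 was at -0.0550, SDHC at -0.0695, COX4I1 at -0.0079 and COX7A2 at -0.0640. With 1 library left out, the lowest and highest values were -0.0108 and 0.0905 for NDUFS7, -0.0191 and 0.0375 for SDHC, -0.0007 and 0.0602 for CYC1, -0.0202 and 0.0727 for COX7A2, and -0.0783 and 0.0008 for ATP5F1B. Counting depth limits NDUFA6 and ATP5F1E most among the tested members, and genes on several contigs cannot be judged at any depth.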

Other observations

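Beyond the subunits, COX7A2L, which joins complexes III and IV into supercomplexes and was picked here after its values were seen, fell from 233.7 ± 14.3 to 162 ± 7.34 CPM (log2 fold change -0.53 ± 0.057, adjusted p = 4.24e-07, edgeR; SD, n = 4). Cytochrome c, CYCS, which carries electrons between the same complexes, rose from 319 ± 25.5 to 407 ± 6.55 CPM (0.35 ± 0.059, adjusted p = 7.14e-05). SCO2, a copper chaperone for COX2, rose from 18.6 ± 0.908 to 27.6 ± 2.06 CPM (0.57 ± 0.079, adjusted p = 8.99e-06). CYCS and SCO2 were likewise picked after their values were seen, and in the list that held SCO2 11 of 26 tested genes rose and 8 fell. COX7A2L, CYCS and SCO2 did not overlap between the groups, where 20.8% of all genes tested lay above and 21.7% below without overlap.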
